A study of Mus musculus with 8 samples.

Results

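Interferon-stimulated genes are genes that cells switch on when interferons bind their receptors. Type I interferons activate the kinases Jak1 and Tyk2, and a complex that holds Stat2 and Irf9 then binds a promoter element called the interferon-stimulated response element (ISRE). Interferon-gamma acts through Jak1 and Jak2 and a second promoter element, the gamma-activated sequence (GAS). In skin, keratinocytes, fibroblasts and resident immune cells respond to interferons, and the induced proteins restrict viruses, present antigen and attract lymphocytes. The 40 genes described here were listed for this function. They cover transcription factors and a feedback inhibitor (5 genes), sensors of foreign nucleic acid (4), antiviral effectors (15), oligoadenylate synthetases and related genes (7), chemokines (3) and interferon-inducible GTPases (6). On the arrays, 36 of the 40 had a probe whose RefSeq accession named the gene, out of 21091 genes named in all, and the probe with the highest mean signal stood for the gene. No such probe was matched for Mx1, Mx2, Oas1b and Cxcl11. Oas1g was not well above background on any array, which left 35 genes to test, and 34 of these were well above background on all 8 arrays.

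RNA came from the whole skin of female mice on the FVB/N background, 24 h after application of DMBA (dimethylbenz(a)anthracene, a carcinogen that starts skin tumours in mice) or of acetone, its solvent. The 4 groups, with 2 one-colour Agilent arrays each, were CD109-/- DMBA, CD109+/+ DMBA, CD109-/- untreated and CD109+/+ untreated, where untreated is the labels' word for acetone. CD109 is a membrane protein that binds TGF-beta and its receptors. It was missing from all cells of the CD109-/- mice, which had been crossed onto FVB/N, whereas the CD109+/+ mice were bought as FVB/N. The labels name no mice behind the replicates and give no age, so p-values measure only the spread between these samples.

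Cd109 itself, the deleted gene, did not follow the labels on 2 of the 8 arrays. Its log2 signal was −8.06 and −7.70 in CD109-/- DMBA skin, 0.84 and 1.42 in CD109+/+ DMBA skin, 1.66 and −8.11 on the arrays labelled untreated CD109-/-, and 2.06 and −6.49 under the label untreated CD109+/+. It was well above background on both CD109+/+ DMBA arrays and on replicate 1 of either untreated label, and not on the other 4 arrays. The signal thus went against the label of untreated CD109-/- replicate 1 and of untreated CD109+/+ replicate 2. It is not known here whether the probe lies within the part that was deleted. Results are therefore given as labelled, with both of these arrays left out, and with the 2 arrays exchanged. The exchange follows the Cd109 signal of the same arrays. Its p-values therefore hold for the arrays as so divided, and they cannot serve as separate support for a genotype effect. On the 4 DMBA arrays Cd109 followed the labels.

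All 8 arrays shared 1 slide, scanned on 1 day, with all DMBA arrays in row 1 and all untreated arrays in row 2. Effects of the row and of the treatment cannot be told apart. All arrays labelled CD109+/+ lay in columns 1 and 2, and all labelled CD109-/- in columns 3 and 4. Effects of the column and of the labelled genotype therefore cannot be told apart either, also after DMBA. Their 75th percentile of intensity lay between 382 and 626, lowest on the 2 CD109-/- DMBA arrays, and at least 63.6% of spots were well above background on each. Replicates correlated at 0.955 to 0.993 across the probes tested, which leaves out dim probes. Markers of the labelled tissue were present on every array, with a mean log2 signal of 6.02 to 7.21 for 5 epidermal genes and 6.36 to 6.90 for 5 fibroblast genes. The small number of arrays limits the precision of every value below.

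Many of these genes hold the core letters of the ISRE near their start, and fewer hold those of the GAS. The promoters in RefSeq (mouse genome build GRCm38.p6, 250 bases before to 50 bases after the start) hold 34 windows for 29 of the 40 genes. The letters GAAANNGAAA, a core of the ISRE, were searched on both strands with overlapping matches counted. They were present in 19 of these 34 promoters (55.9%), against 1131 of 32851 promoters of all genes (3.44%). The letters TTCNNNGAA, a core of the GAS, were present in 7 of the 34 (20.6%), against 2726 of all promoters (8.3%). The following stretches show such matches in genes whose values are given in full, written 5′ to 3′ along the gene's strand, with the matching letters in capitals. Genes on the plus strand of the genome are Ifit1, Gbp2, Igtp and Irf1, and the others are on the minus strand. A match is a description of the letters and not a measured binding site.
Isg15, ISRE, chr4:156200867-156200916: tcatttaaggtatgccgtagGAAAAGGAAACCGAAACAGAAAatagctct
Ifit1, ISRE, chr19:34640765-34640814: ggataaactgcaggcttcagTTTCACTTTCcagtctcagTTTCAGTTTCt
Rsad2, ISRE, chr12:26456543-26456592: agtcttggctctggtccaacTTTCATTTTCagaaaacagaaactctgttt
Cxcl10, ISRE, chr5:92349073-92349122: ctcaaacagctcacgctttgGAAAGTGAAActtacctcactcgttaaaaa
Gbp2, ISRE, chr3:142620584-142620633: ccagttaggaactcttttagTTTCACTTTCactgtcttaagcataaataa
Igtp, ISRE, chr11:58199502-58199551: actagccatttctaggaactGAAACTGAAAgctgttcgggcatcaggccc
Irgm1, ISRE, chr11:48871421-48871470: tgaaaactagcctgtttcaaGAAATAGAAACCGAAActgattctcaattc
Irf1, GAS, chr11:53769904-53769952: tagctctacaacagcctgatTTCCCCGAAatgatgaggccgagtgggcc

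Isg15 held a run of overlapping matches, the first beginning 78 bases before the start of the gene, and Ifit1 held a pair that began 104 and 85 bases before it. The first match began 120 bases before the start in Rsad2, 213 in Cxcl10, 59 in Gbp2, 34 in Igtp and 30 in Irgm1. Irf1 had no ISRE core in this window, and its GAS core began 90 bases before the start. Among the tested genes, the CD109-/- against CD109+/+ comparison after DMBA gave a median log2 fold change of −1.72 for the 17 with an ISRE match, −1.34 for the 11 with a promoter entry but no match and −1.78 for the 7 without an entry.

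After DMBA, the signals of 34 of the 35 genes were lower in CD109-/- skin than in CD109+/+ skin, and both CD109-/- arrays lay below both CD109+/+ arrays for each of the 34. Of all 36913 probes tested, 29.8% had both CD109-/- arrays lower. The median log2 fold change of the 35 genes was −1.60, and that of all probes was 0.12. None of the 35 passed limma at a Benjamini-Hochberg adjusted p under 0.05 over all probes, where 30 probes did (0.0813%), and the genes' adjusted p-values lay between 0.0833 and 0.325. At an unadjusted p under 0.05, 22 genes were lower and 1 was higher, against 26.1% of all probes in either direction. The study's methods name a t-test, among other tests, for comparing 2 groups, without saying that it was used on the arrays. Unadjusted, that t-test put 6 genes lower, where 8.36% of probes were lower and 18.7% differed in either direction. After adjustment it put none lower. This comparison uses only the DMBA arrays for its means, and the untreated arrays enter through the spread alone. With the 2 doubtful untreated arrays left out, 0 genes passed after adjustment, and 31 were lower and 1 higher at an unadjusted p under 0.05 (32.9% of all probes).

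With the 2 untreated arrays exchanged, the fold changes after DMBA stayed as they were and the spread within groups was smaller for most of the genes. Then 14 of the 35 were lower at an adjusted p under 0.05, where 7.59% of all probes were lower, and 1 was higher, where 13.1% of all probes were higher. This count depended on single arrays, and the share over all probes moved with it. Still exchanged, 0 genes passed without CD109+/+ DMBA replicate 1 (0.0727% of all probes lower) or without CD109+/+ DMBA replicate 2 (0.124%), and 1 was lower without CD109-/- DMBA replicate 2 (1.1%). Without CD109-/- DMBA replicate 1, 24 were lower (14.9% of all probes) and 1 was higher (21.5%). Leaving out an untreated array gave 10 lower where its Cd109 was high (3.56% of all probes) and 2 lower where its Cd109 was low (3.2%).

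**Figure D1:**
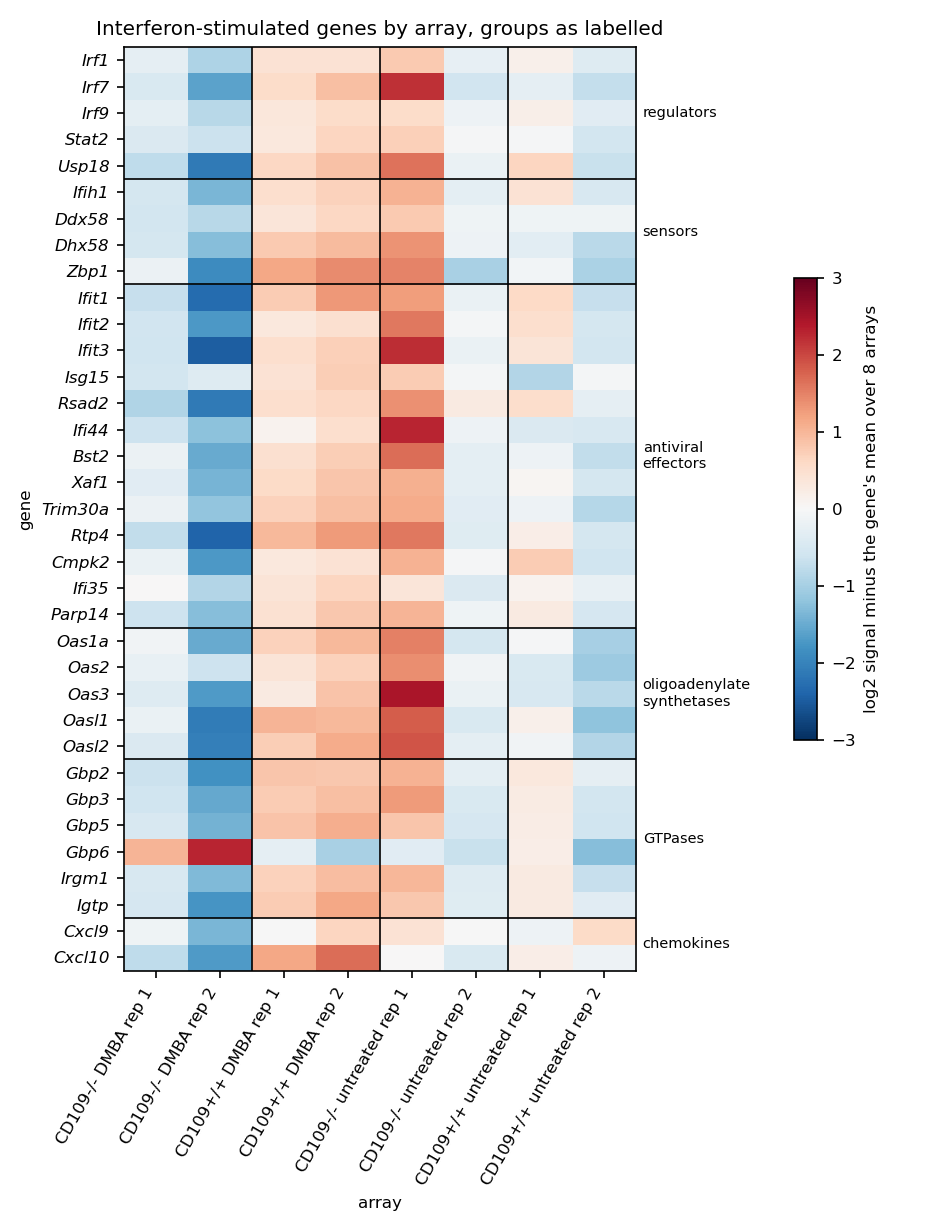
Log2 signal of the 35 tested interferon-stimulated genes (rows, grouped by role) on each of the 8 arrays (columns), as the difference from the gene's own mean over the arrays. Most rows are lowest in CD109-/- DMBA replicate 2 (32 of 35 genes) and highest on the array labelled untreated CD109-/- replicate 1 (27 of 35).

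All values by array that follow are log2 signals (intensity over the 75th percentile of the array), with replicate 1 before replicate 2, and each log2 fold change is CD109-/- minus CD109+/+ after DMBA unless another comparison is named. Across the 35 genes the mean log2 signal was 0.31 and −0.68 in CD109-/- DMBA skin, 1.28 and 1.52 in CD109+/+ DMBA skin, 1.92 and 0.44 on the arrays labelled untreated CD109-/-, and 0.80 and 0.15 under the label untreated CD109+/+. The lowest array was thus CD109-/- DMBA replicate 2, and the highest was untreated CD109-/- replicate 1, which is one of the 2 arrays whose Cd109 signal went against the label.

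The 5 regulators had the smallest median difference of the role groups after DMBA, −1.03. Irf7, the transcription factor that amplifies type I interferon production, measured −0.53 and −1.69 in CD109-/- DMBA skin, 0.48 and 0.82 in CD109+/+ DMBA skin, 2.11 and −0.66 on the arrays labelled untreated CD109-/-, and −0.35 and −0.80 under the label untreated CD109+/+. Its fold change was −1.76 (SE 0.90, adjusted p = 0.261). The DMBA groups did not overlap, and 1 untreated array stood above all others. Irf9, the DNA-binding part of the complex that binds the ISRE, measured 1.88 and 1.36 in CD109-/- DMBA skin and 2.53 and 2.74 in CD109+/+ DMBA skin, with 2.74 and 2.03 on the arrays labelled untreated CD109-/- and 2.35 and 1.84 under the label untreated CD109+/+. The fold change of Irf9 was smaller but its arrays were closer together, at −1.01 (SE 0.33, adjusted p = 0.140). With the arrays exchanged it passed, with an adjusted p of 0.0366. Stat2, a partner of Irf9 in that complex, had 1.29 and 1.08 after DMBA in CD109-/- skin, against 2.06 and 2.38 in CD109+/+ skin, and the arrays labelled untreated gave 2.46 and 1.70 for CD109-/- and 1.71 and 1.19 for CD109+/+. The fold change of Stat2 was −1.03 (SE 0.32, adjusted p = 0.132). Irf1, a transcription factor that interferon-gamma induces strongly, gave 3.12 and 2.47 in CD109-/- DMBA skin and 3.82 and 3.82 in CD109+/+ DMBA skin, with 4.16 and 3.13 on the arrays labelled untreated CD109-/- and 3.54 and 3.01 under the label untreated CD109+/+. For Irf1 the fold change was −1.03 (SE 0.41, adjusted p = 0.188), and the DMBA groups were again apart. Usp18, a protease that removes Isg15 from proteins and dampens signalling from the type I receptor, measured −0.95 and −2.30 in CD109-/- DMBA skin, 0.44 and 0.71 in CD109+/+ DMBA skin, 1.46 and −0.38 on the arrays labelled untreated CD109-/-, and 0.47 and −0.85 under the label untreated CD109+/+. It had the largest fold change of the 5 regulators, −2.19 (SE 0.79, adjusted p = 0.159), and passed with the arrays exchanged (adjusted p = 0.0392).

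Of the sensors, all 4 were lower in CD109-/- DMBA skin, with a median of −1.67. Ifih1 (MDA5), a sensor of long double-stranded RNA, measured 0.087 and −0.76 after DMBA in CD109-/- skin, against 1.13 and 1.32 in CD109+/+ skin, and the arrays labelled untreated gave 1.67 and 0.32 for CD109-/- and 1.07 and 0.14 for CD109+/+. Its fold change of −1.56 (SE 0.56, adjusted p = 0.159) passed with the arrays exchanged, where adjusted p was 0.0323. A dimmer tested probe of Ifih1 gave −1.79 and did not pass under the exchange (adjusted p = 0.134). Ddx58 (RIG-I), which senses RNA with a free triphosphate end, had 0.73 and 0.45 in CD109-/- DMBA skin, 1.63 and 1.90 in CD109+/+ DMBA skin, 2.06 and 1.14 on the arrays labelled untreated CD109-/-, and 1.15 and 1.13 under the label untreated CD109+/+. Ddx58 differed by −1.18 (SE 0.32, adjusted p = 0.113) and passed under the exchange at an adjusted p of 0.0468. Another tested probe of Ddx58 differed by only −0.46 (adjusted p = 0.473) and did not pass under the exchange (adjusted p = 0.144). Zbp1, a sensor of Z-form nucleic acids that can start cell death, measured 0.93 and −0.78 in CD109-/- DMBA skin and 2.27 and 2.53 in CD109+/+ DMBA skin, with 2.61 and 0.13 on the arrays labelled untreated CD109-/- and 1.03 and 0.16 under the label untreated CD109+/+. Its larger fold change, −2.32 (SE 0.93, adjusted p = 0.187), came with a wide gap between the 2 CD109-/- DMBA arrays and did not pass with the arrays exchanged (adjusted p = 0.0616). Dhx58 (LGP2), which tunes the other RNA sensors, had a fold change of −1.78 (SE 0.53, adjusted p = 0.124).

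Among the antiviral effectors, the Ifit genes, whose proteins bind viral RNA and block its translation, were low on both CD109-/- DMBA arrays. The 13 effectors tested had a median of −1.55. With the arrays exchanged 4 passed, all lower, where 7.59% of all probes were lower. Ifit1 measured −1.29 and −2.91 in CD109-/- DMBA skin, 0.18 and 0.71 in CD109+/+ DMBA skin, 0.66 and −0.78 on the arrays labelled untreated CD109-/-, and −0.0005 and −1.28 under the label untreated CD109+/+. At 5.82-fold lower, −2.54 (SE 0.76, adjusted p = 0.125) on the log2 scale, it passed with the arrays exchanged (adjusted p = 0.0345). Ifit3 had −0.02 and −1.90 in CD109-/- DMBA skin and 1.08 and 1.30 in CD109+/+ DMBA skin, with 2.78 and 0.38 on the arrays labelled untreated CD109-/- and 0.97 and 0.029 under the label untreated CD109+/+. Ifit3 differed by −2.15 (SE 0.94, adjusted p = 0.213), and the array labelled untreated CD109-/- replicate 1 was well above the rest. Isg15, a ubiquitin-like protein that is attached to other proteins, measured 3.06 and 3.21 after DMBA in CD109-/- skin, against 4.03 and 4.34 in CD109+/+ skin, and the arrays labelled untreated gave 4.37 and 3.55 for CD109-/- and 2.72 and 3.54 for CD109+/+. Isg15 differed by −1.05 (SE 0.38, adjusted p = 0.160), and under the exchange its adjusted p was 0.166. Its 2 CD109+/+ DMBA arrays were above 3 of the 4 untreated arrays and below the array labelled untreated CD109-/- replicate 1. Rsad2 (viperin), an enzyme that makes a chain-terminating nucleotide, gave −2.35 and −3.56 in CD109-/- DMBA skin, −0.93 and −0.81 in CD109+/+ DMBA skin, −0.074 and −1.18 on the arrays labelled untreated CD109-/-, and −0.93 and −1.73 under the label untreated CD109+/+. Rsad2 differed by −2.08 (SE 0.55, adjusted p = 0.110) and passed with the arrays exchanged (adjusted p = 0.0363). Both of its CD109-/- DMBA arrays lay below all 4 untreated arrays, as for 9.54% of all probes.

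Rtp4, a chaperone of membrane receptors with antiviral activity, had the lowest fold change of all 35 genes. It measured 1.85 and 0.18 in CD109-/- DMBA skin, 3.55 and 3.86 in CD109+/+ DMBA skin, 4.18 and 2.22 on the arrays labelled untreated CD109-/-, and 2.79 and 2.06 under the label untreated CD109+/+. This was 6.48-fold lower in CD109-/- DMBA skin than in CD109+/+ DMBA skin, −2.70 (SE 0.80, adjusted p = 0.123), with an adjusted p of 0.0400 under the exchange. Bst2 (tetherin), which holds budding virus at the cell surface, measured 2.03 and 0.69 in CD109-/- DMBA skin and 2.70 and 2.95 in CD109+/+ DMBA skin, with 3.89 and 1.91 on the arrays labelled untreated CD109-/- and 2.06 and 1.47 under the label untreated CD109+/+. Bst2 differed by −1.46 (SE 0.73, adjusted p = 0.254), and CD109-/- DMBA replicate 1 lay within the range of the untreated arrays. Parp14, an enzyme that adds ADP-ribose to proteins, had 1.20 and 0.56 after DMBA in CD109-/- skin, against 2.29 and 2.63 in CD109+/+ skin, and the arrays labelled untreated gave 2.85 and 1.71 for CD109-/- and 2.11 and 1.32 for CD109+/+. Its fold change of −1.58 (SE 0.48, adjusted p = 0.126) passed under the exchange (adjusted p = 0.0329). Ifi44, a cytoplasmic protein induced by type I interferon, gave −2.84 and −3.46 in CD109-/- DMBA skin and −2.12 and −1.72 in CD109+/+ DMBA skin, with 0.069 and −2.37 on the arrays labelled untreated CD109-/- and −2.66 and −2.71 under the label untreated CD109+/+. Here the array labelled untreated CD109-/- replicate 1 lay far above the other 7, and the fold change after DMBA was −1.23 (SE 0.76, adjusted p = 0.325). Ifi35 measured 1.54 and 0.66 in CD109-/- DMBA skin, 1.92 and 2.18 in CD109+/+ DMBA skin, 1.89 and 1.08 on the arrays labelled untreated CD109-/-, and 1.63 and 1.29 under the label untreated CD109+/+. It had the smallest difference among the effectors, −0.95 (SE 0.40, adjusted p = 0.199). The remaining effectors, Ifit2, Xaf1, Trim30a and Cmpk2, had fold changes of −1.55, −1.57, −1.48 and −1.34.

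The oligoadenylate synthetases make the second messenger that activates RNase L, which degrades RNA, and Oasl1 and Oasl2 are relatives of them. All 5 tested were lower in CD109-/- DMBA skin, with a median of −1.65. None passed as labelled, where 0.0813% of all probes did. With the arrays exchanged none passed either, where 7.59% of all probes were lower and 13.1% higher. Oasl2 measured 0.84 and −0.80 after DMBA in CD109-/- skin, against 2.00 and 2.37 in CD109+/+ skin, and the arrays labelled untreated gave 3.15 and 0.97 for CD109-/- and 1.15 and 0.39 for CD109+/+. The DMBA groups were apart by −2.17 (SE 0.84, adjusted p = 0.179). Oasl1, which represses translation of Irf7 in mice, gave 1.46 and −0.43 in CD109-/- DMBA skin, 2.69 and 2.63 in CD109+/+ DMBA skin, 3.49 and 1.20 on the arrays labelled untreated CD109-/-, and 1.80 and 0.46 under the label untreated CD109+/+. The 2 CD109-/- DMBA arrays differed by more for Oasl1 than the 2 CD109+/+ DMBA arrays did, and the fold change was −2.15 (SE 0.96, adjusted p = 0.219). Oas3 gave −4.13 and −5.42 in CD109-/- DMBA skin and −3.47 and −2.87 in CD109+/+ DMBA skin, with −1.28 and −3.94 on the arrays labelled untreated CD109-/- and −4.22 and −4.53 under the label untreated CD109+/+. Oas3 differed by −1.60 (SE 0.90, adjusted p = 0.289), and 1 untreated array again stood above the other 7. Oas1a and Oas2 had fold changes of −1.65 and −0.97.

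Cxcl10, a chemokine that draws T cells carrying the receptor Cxcr3, had the smallest adjusted p of the 35 genes after DMBA. It measured −0.31 and −1.25 in CD109-/- DMBA skin, 1.61 and 2.12 in CD109+/+ DMBA skin, 0.44 and −0.009 on the arrays labelled untreated CD109-/-, and 0.64 and 0.29 under the label untreated CD109+/+. The CD109-/- DMBA arrays were below all 4 untreated arrays and the CD109+/+ DMBA arrays above all 4, whichever genotype the untreated arrays carry. The same held for 1.21% of all probes. The gap after DMBA was 6.26-fold, −2.65 (SE 0.38, adjusted p = 0.0833). Under the exchange the adjusted p was 0.0175. Cxcl9, which acts on the same receptor and depends more on interferon-gamma, measured −0.78 and −2.01 after DMBA in CD109-/- skin, against −0.65 and 0.0033 in CD109+/+ skin, and the arrays labelled untreated gave −0.21 and −0.66 for CD109-/- and −0.80 and −0.072 for CD109+/+. Its fold change was −1.07 (SE 0.50, adjusted p = 0.229), and CD109-/- DMBA replicate 1 lay within the range of the untreated arrays.

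**Figure D2:**
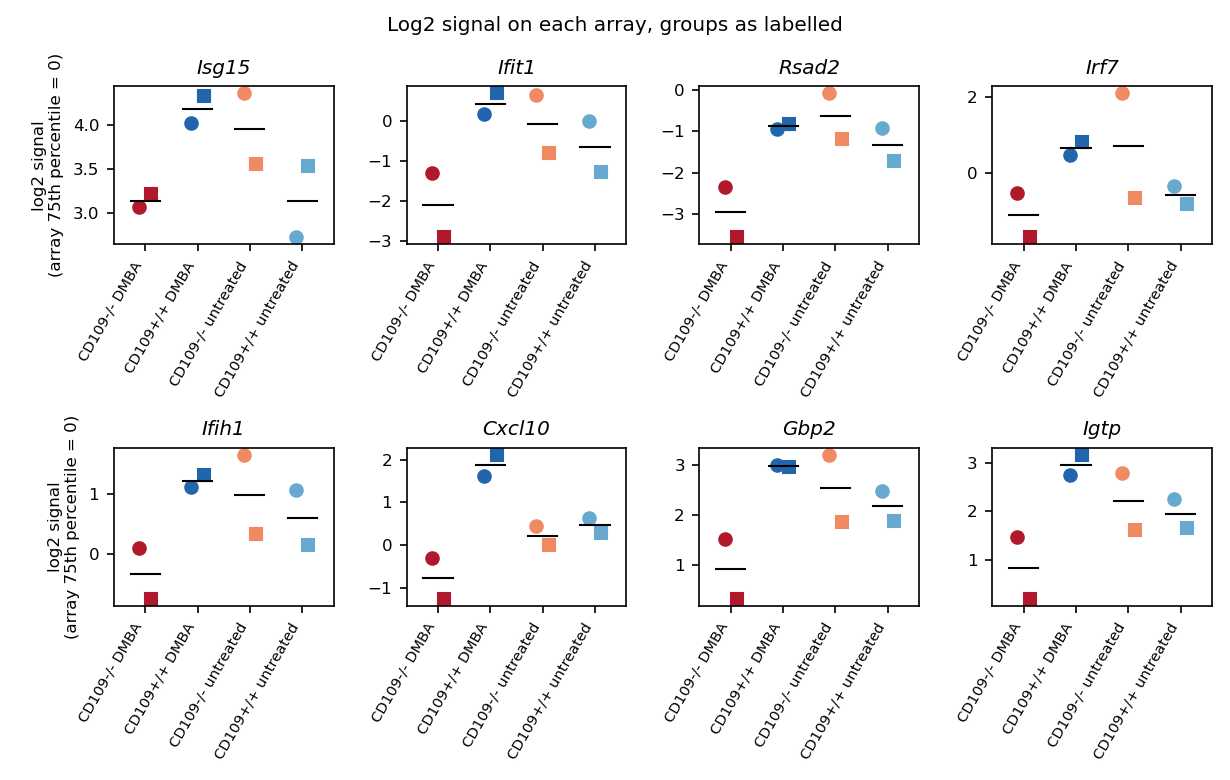
Log2 signal of 8 of the genes on each array by group, with circles for replicate 1, squares for replicate 2 and a line at the group mean. For Cxcl10 both CD109-/- DMBA arrays (−0.31 and −1.25) lie below, and both CD109+/+ DMBA arrays (1.61 and 2.12) above, all 4 untreated arrays, as for 1.21% of all probes.

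The GTPases, guanylate-binding proteins and immunity-related GTPases that attack the vacuoles of intracellular pathogens, are induced strongly by interferon-gamma. They were the role group in which every tested gene passed with the arrays exchanged, 5 lower and 1 higher. Of all probes, 7.59% were lower and 13.1% higher in that arrangement. The 1 higher was Gbp6, whose probes disagreed. None passed as labelled. Gbp2 measured 1.52 and 0.33 in CD109-/- DMBA skin, 2.99 and 2.96 in CD109+/+ DMBA skin, 3.20 and 1.86 on the arrays labelled untreated CD109-/-, and 2.47 and 1.88 under the label untreated CD109+/+. Its fold change was −2.05 (SE 0.57, adjusted p = 0.114), with an adjusted p of 0.0309 under the exchange. Gbp3 had 0.37 and −0.57 in CD109-/- DMBA skin and 1.73 and 1.88 in CD109+/+ DMBA skin, with 2.25 and 0.52 on the arrays labelled untreated CD109-/- and 1.21 and 0.41 under the label untreated CD109+/+. It differed by −1.90 (SE 0.64, adjusted p = 0.144) as labelled, and adjusted p was 0.0351 with the arrays exchanged. Gbp5, which also helps assemble inflammasomes, measured −0.62 and −1.55 after DMBA in CD109-/- skin, against 0.73 and 0.97 in CD109+/+ skin, and the arrays labelled untreated gave 0.70 and −0.64 for CD109-/- and 0.088 and −0.72 for CD109+/+. Both CD109+/+ DMBA arrays of Gbp5 were above all 4 untreated arrays, as for 15.9% of all probes. The fold change of Gbp5 was −1.93 (SE 0.55, adjusted p = 0.119), with an adjusted p of 0.0265 under the exchange. Igtp (Irgm3) gave 1.48 and 0.22 in CD109-/- DMBA skin, 2.75 and 3.16 in CD109+/+ DMBA skin, 2.79 and 1.63 on the arrays labelled untreated CD109-/-, and 2.26 and 1.66 under the label untreated CD109+/+. Its fold change was −2.11 (SE 0.56, adjusted p = 0.111) as labelled and its adjusted p 0.0309 with the arrays exchanged. Irgm1, a regulator of the other immunity-related GTPases, measured 0.99 and 0.14 in CD109-/- DMBA skin and 2.17 and 2.39 in CD109+/+ DMBA skin, with 2.48 and 1.09 on the arrays labelled untreated CD109-/- and 1.75 and 0.78 under the label untreated CD109+/+. The fold change of Irgm1 was −1.72 (SE 0.57, adjusted p = 0.142), and it too passed under the exchange (adjusted p = 0.0319).

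Gbp6 was the exception among the 35, and its probes disagreed. The brightest probe measured 2.16 and 3.43 in CD109-/- DMBA skin, 0.88 and 0.17 in CD109+/+ DMBA skin, 0.79 and 0.48 on the arrays labelled untreated CD109-/-, and 1.33 and −0.13 under the label untreated CD109+/+. It was higher in CD109-/- DMBA skin by 2.27 (SE 0.62, adjusted p = 0.113), with an adjusted p of 0.0339 under the exchange. Its other probe measured −2.33 and −4.31 in CD109-/- DMBA skin, −1.25 and −0.94 in CD109+/+ DMBA skin, −0.41 and −1.82 on the arrays labelled untreated CD109-/-, and −1.39 and −1.81 under the label untreated CD109+/+. That probe gave a fold change of −2.22 (SE 0.74, adjusted p = 0.142 as labelled and 0.0610 with the arrays exchanged), in the direction of the other genes. A change of Gbp6 in either direction is therefore uncertain. Of the 10 genes with another tested probe, the other 9 had both probes in the same direction after DMBA.

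**Figure D3:**
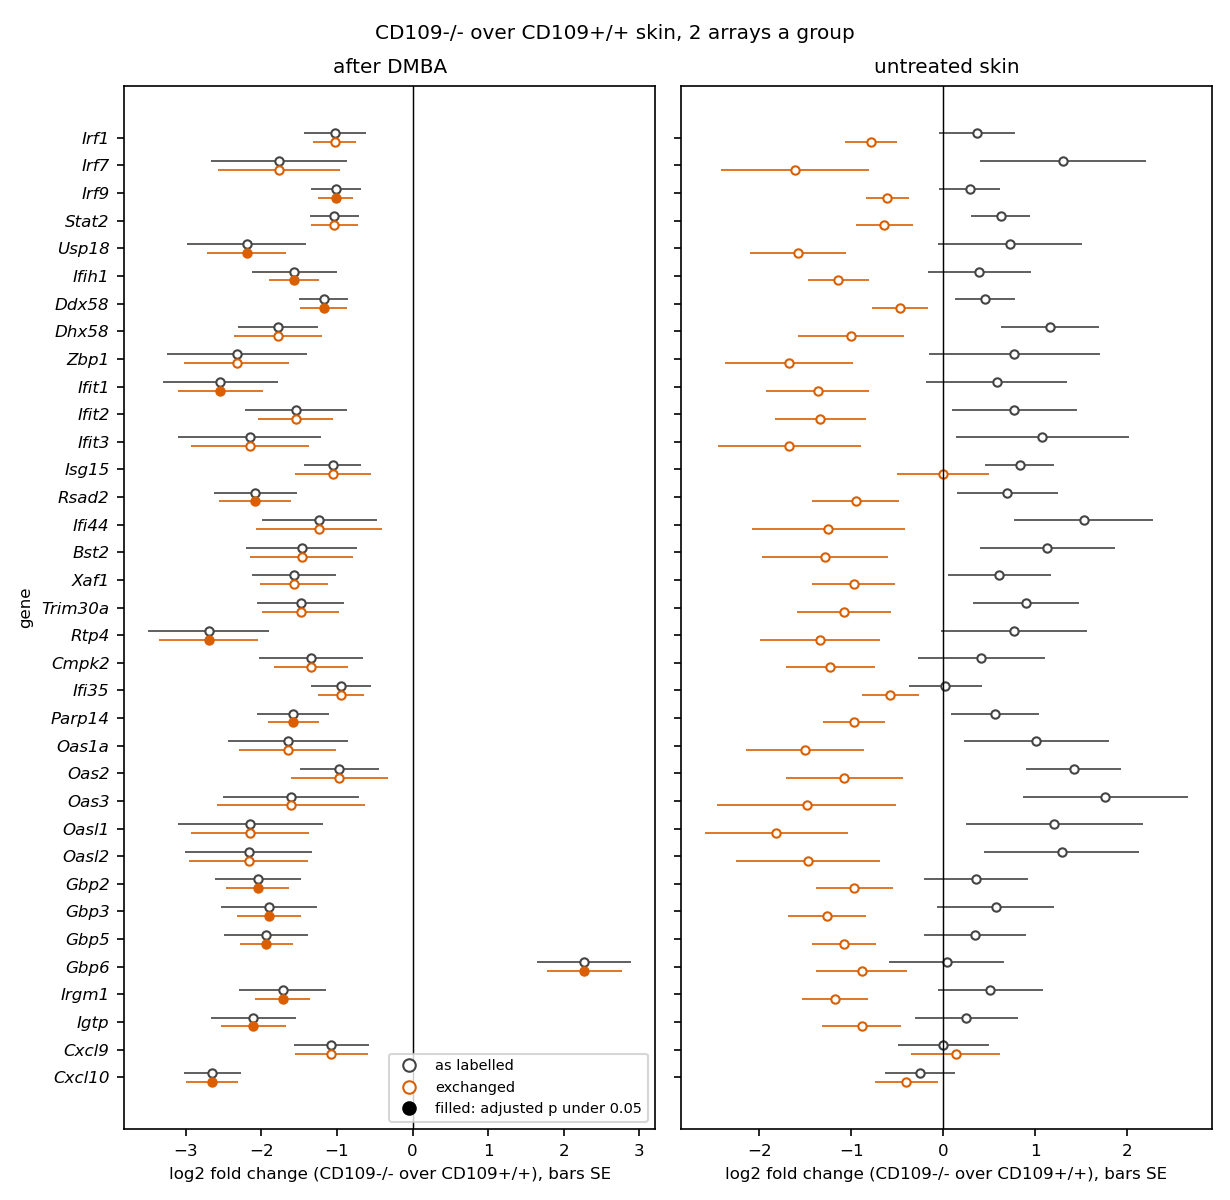
Log2 fold change in CD109-/- against CD109+/+ skin for each tested gene, with its standard error, after DMBA and in untreated skin, with the arrays as labelled (grey) and with 2 untreated arrays exchanged (orange). Filled points have an adjusted p under 0.05, and after DMBA 34 of 35 genes are below 0 whereas in untreated skin 34 are above 0 as labelled and 33 are below 0 when exchanged.

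In untreated skin the direction depended on the 2 doubtful arrays. As labelled, 34 of the 35 genes were higher in CD109-/- skin, with a median log2 fold change of 0.63 (all probes −0.02), and none passed (0.00542% of all probes did). The values ran from −0.25 for Cxcl10 to 1.53 for Ifi44 and 1.77 for Oas3. At an unadjusted p under 0.05, 1 gene was higher, against 2.15% of all probes in either direction, and this was Oas2 (1.42, SE 0.52). The methods' t-test gave 0 (2.17% of probes). Without the array labelled untreated CD109-/- replicate 1, the median was −0.085, and with both doubtful arrays left out it was −0.49. With the arrays exchanged, 33 of the 35 genes were lower in CD109-/- skin, with a median of −1.08. None passed after adjustment, where 8.96% of all probes did, and 10 were lower at an unadjusted p under 0.05, where 29.8% of probes differed. The fold changes then ran from −1.81 for Oasl1 and −1.68 for Zbp1 to 0.14 for Cxcl9. The smallest adjusted p under the exchange was that of Ifih1 (−1.14, SE 0.33, adjusted p = 0.0871).

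For DMBA against untreated skin of the same genotype, the size of the difference depended on those arrays. The direction held in CD109-/- skin and depended on them in CD109+/+ skin. In CD109-/- skin as labelled, 34 of the 35 genes were lower after DMBA, with a median of −1.36 (all probes 0.12) and none passing (0% of all probes). At an unadjusted p under 0.05, 13 genes were lower and 1 was higher (14.6% of probes), and the methods' t-test gave 0 (5.61%). The fold changes ran from −2.54 for Ifit3 and −2.33 for Rsad2 to −0.39 for Ifi35, with Gbp6 at 2.16. With the arrays exchanged 33 of the 35 genes were lower, with a median of −0.54. Then 0 genes passed (0.0215% of probes) and 3 differed at an unadjusted p under 0.05 (17.5%). With both doubtful arrays left out, 33 were lower and the median was −0.66.

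In CD109+/+ skin as labelled, 34 of the 35 genes were higher after DMBA than in untreated skin, with a median of 0.99 (all probes −0.03). None passed, where 0.179% of all probes did. At an unadjusted p under 0.05, 4 were higher (11.4% of probes in either direction), which were Cxcl10 (1.40, SE 0.38, adjusted p = 0.291), Dhx58 (1.43), Oas2 (1.32) and Isg15 (1.06). The methods' t-test also gave 4 (11.1% in either direction), none of them after adjustment. The fold change was highest for Zbp1 (1.80) and Oasl1 (1.53) and lowest for Gbp6 (−0.071) and Cxcl9 (0.11). With both doubtful arrays left out the median was 0.61. With the arrays exchanged it was 0.09, with 22 genes higher and 13 lower. Then 0 genes passed (3.52% of probes) and 1 had an unadjusted p under 0.05 (22.1%). That gene was Cxcl10, at 1.33 (SE 0.35, adjusted p = 0.101). Averaged over both genotypes, a comparison in which the exchange leaves the fold changes the same, 26 of the 35 genes were lower after DMBA, with a median of −0.20. None passed (0.0298% of all probes), and 0 had an unadjusted p under 0.05 (11.5%). That direction did not hold with both doubtful arrays left out, where 16 were lower and 19 higher with a median of 0.0032, or without the array labelled untreated CD109-/- replicate 1, where 11 were lower and 24 higher with a median of 0.18.

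The difference between the DMBA effects, CD109-/- minus CD109+/+, was negative for 34 of the 35 genes as labelled, with a median of −2.39 (all probes 0.15). None passed (0% of all probes), and at an unadjusted p under 0.05 there were 25 negative and 1 positive (15.9% of probes). It was lowest for Rtp4 (−3.47) and Oasl2 (−3.46) and, Gbp6 apart (2.23), highest for Ifi35 (−0.97). With both doubtful arrays left out the median was −1.31, and leaving out each array in turn gave medians of −3.12 to −1.61. As labelled, 21 of the 35 genes had both CD109-/- DMBA arrays below both untreated CD109-/- arrays and both CD109+/+ DMBA arrays above both untreated CD109+/+ arrays, against 4.39% of all probes. This pattern depended on the 2 doubtful arrays. With them exchanged, the CD109-/- part held for 16 genes (17.4% of all probes). The CD109+/+ part held for 3 (29%), so at most 3 genes could show both. Under the exchange the median difference was −0.54, 0 genes passed (0.035% of probes), and 2 had an unadjusted p under 0.05 (21.1%). These were Cxcl10 (−2.25, SE 0.49, adjusted p = 0.111) and Gbp6 (3.15, SE 0.70, adjusted p = 0.115). As labelled, Cxcl10 differed by −2.40 (SE 0.54, adjusted p = 0.269).

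A comparison that uses no genotype label of the untreated arrays set each DMBA group against all 4 of them. Both CD109-/- DMBA arrays lay below all 4 untreated arrays for 14 of the 35 genes, against 9.54% of all probes. These were Ifit1, Ifit2, Ifit3, Rsad2, Usp18, Ifi44, Ifih1, Ddx58, Cxcl10, Gbp2, Gbp3, Rtp4, Parp14 and Igtp. Both CD109+/+ DMBA arrays lay above all 4 for 3 genes, Cxcl10, Gbp5 and Ifi35, against 15.9% of all probes. Cxcl10 was the 1 gene that did both, as did 1.21% of all probes. Divided by the Cd109 signal alone, the 4 arrays low in Cd109 were all below the 4 arrays high in Cd109 for 28 of the 35 genes, against 12.7% of all probes. The arrays overlapped for Isg15, Oas2, Oas3, Ifi44, Dhx58, Cxcl9 and Gbp6.

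Most other genes of the pathway had negative fold changes in CD109-/- against CD109+/+ skin after DMBA, as did 42.4% of all probes, and none passed as labelled. Of 12 ligands and receptors tested (16 listed), 11 had a negative fold change, with a median of −0.47. With the arrays exchanged, where 7.59% of all probes were lower and 13.1% higher, the receptor genes Ifnar2 (−1.37), Il10rb (−1.06) and Ifnar1 (−0.58) were lower and Ifnlr1, the receptor for type III interferon, was higher (1.00). Of 22 signalling genes, 21 were negative, with a median of −0.65. Under the exchange 9 were lower, among them the feedback inhibitor Socs3 (−1.35, SE 0.12, adjusted p = 0.0101), the adaptor Myd88 (−1.24, SE 0.16, adjusted p = 0.0173), the endosomal RNA sensor Tlr7 (−1.75, SE 0.28, adjusted p = 0.0228) and Sting1, which relays the sensing of DNA in the cytosol (−1.23, SE 0.23, adjusted p = 0.0271). Of 68 further interferon-stimulated genes tested (75 listed), 67 were negative, with a median of −1.14 and a range of −4.14 to 0.55. Under the exchange 25 of the 68 were lower, again against 7.59% of all probes. They included Ifit1bl1 (−3.34), Ifitm1 (−2.16), Gbp7 (−2.15) and Tgtp1 (−1.96). Some of these belong to families with near-identical copies, so a probe may detect more than 1 of them.

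Markers of some other cell types differed between the DMBA groups in the same direction as the interferon-stimulated genes. The 8 macrophage markers were all lower in CD109-/- DMBA skin, with a median log2 fold change of −1.70 (6 lower under the exchange, against 7.59% of all probes), and were well above background on all arrays. Their mean log2 signal was 2.53 and 1.83 in CD109-/- DMBA skin, 4.11 and 4.01 in CD109+/+ DMBA skin, 4.01 and 3.11 on the arrays labelled untreated CD109-/-, and 3.23 and 2.50 under the label untreated CD109+/+. As for the interferon-stimulated genes, CD109-/- DMBA replicate 2 was the lowest array, and the array labelled untreated CD109-/- replicate 1 was the highest of the untreated ones. The 3 monocyte markers tested had a median of −2.02 (3 negative), the 5 neutrophil markers −1.24 (4 negative) and the 4 endothelial markers −1.01 (3 negative). Under the exchange 1 monocyte, 2 neutrophil and 3 endothelial markers were lower and none was higher, against 7.59% and 13.1% of all probes. Of the neutrophil markers, 1 was higher after DMBA than in untreated CD109+/+ skin as labelled, where 0.179% of all probes passed. With the arrays exchanged 4 of the 5 were higher, where 3.52% of all probes passed. Markers of other cells had medians closer to 0, at 0.16 for 4 Langerhans cell genes, −0.17 for 6 NK cell genes and −0.15 for 5 epidermal genes. Single genes of these lists ran from −0.23 to 1.01, from −2.61 to 0.49 and from −1.37 to 0.23. With the arrays exchanged, 1 Langerhans cell gene was higher (13.1% of all probes), and 1 NK cell gene and 1 epidermal gene were lower (7.59%). In whole skin, fewer cells of a type and less RNA per cell cannot be told apart, and the part of these cells in the values above was not tested.

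Hair shaft keratins split the arrays in the same way as Cd109. The 8 tested (10 listed) averaged 1.87 and 6.74 in CD109-/- DMBA skin, −4.86 and −4.76 in CD109+/+ DMBA skin, −4.60 and 3.84 on the arrays labelled untreated CD109-/-, and −4.15 and 5.53 under the label untreated CD109+/+. All 8 were well above background on the 4 arrays low in Cd109 and 4 or 5 of the 8 on the others. CD109-/- DMBA replicate 2, the array lowest for 32 of the 35 interferon-stimulated genes, had the highest hair shaft signal. The part of this difference in hair in the values of the interferon-stimulated genes was not tested. Of the 6 T cell markers tested, 5 had a positive fold change after DMBA, with a median of 0.60. The 4 markers of plasmacytoid dendritic cells went both ways, 2 positive and 2 negative, between −2.87 and 0.56. With the arrays exchanged 2 of these 4 were lower and none was higher at an adjusted p under 0.05, against 7.59% and 13.1% of all probes.

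**Figure D4:**
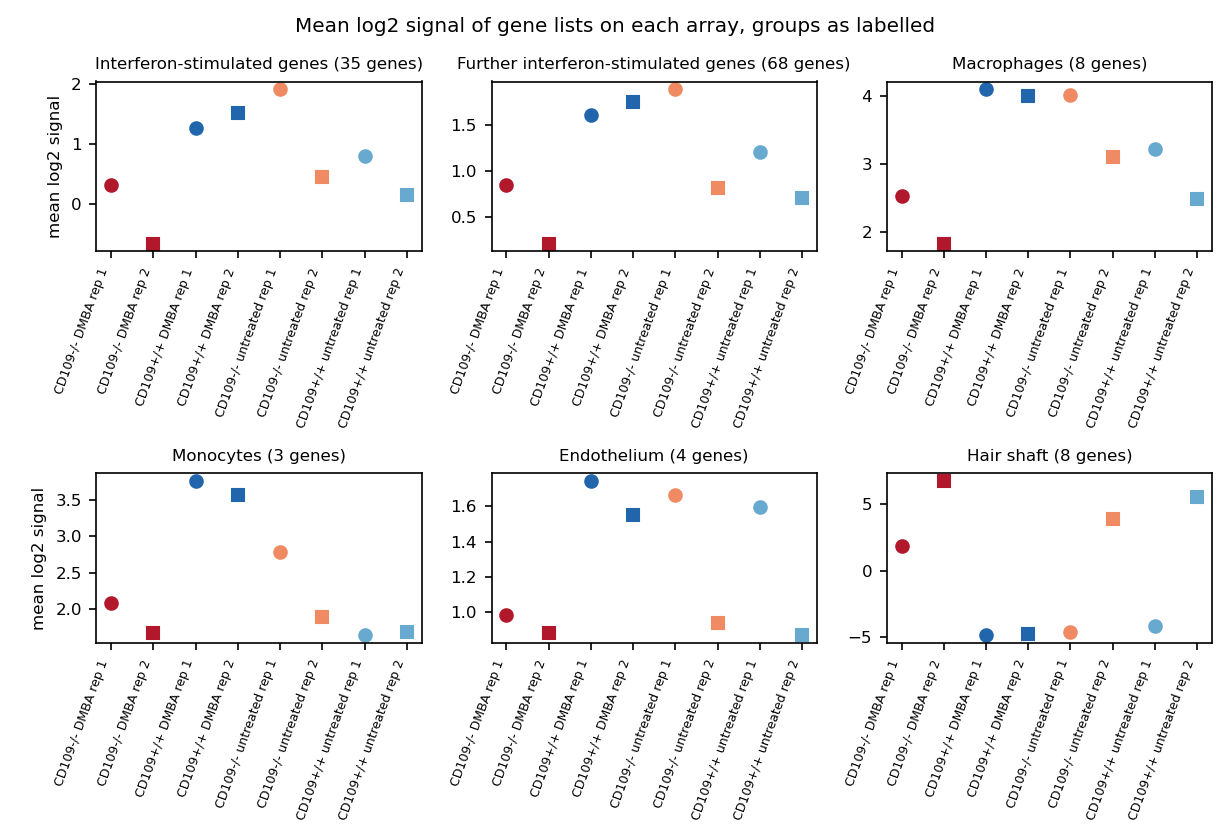
Mean log2 signal on each array, by group, of the interferon-stimulated genes (35 genes), the further interferon-stimulated genes (68) and the markers of macrophages (8), monocytes (3), endothelium (4) and hair shaft (8). Macrophage markers (2.53 and 1.83 in CD109-/- DMBA skin, 4.11 and 4.01 in CD109+/+ DMBA skin) differ between the DMBA groups in the same direction as the interferon-stimulated genes, and hair shaft markers in the opposite one.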

How the data were processed

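The authors extracted total RNA from skin, labelled it with Cy3 and read the arrays with Agilent Feature Extraction 11.5.1.1. The deposited spot intensity is linear and background-subtracted by that software, and no normalization between arrays had been applied. Control spots were not used, and replicate spots of a probe were averaged. Of 55681 probes, 223 with an outlier flag were dropped. Each intensity was divided by its array's 75th percentile and turned into log2. A probe was tested if at least 1 group had it well above background on both arrays (36913, and 37139 with 2 arrays exchanged). The 27916 probes named through RefSeq accessions covered 21091 genes. Groups were compared with limma 3.58.1 in R 4.3.3, with 1 mean per group over 8 arrays and Benjamini-Hochberg adjustment over all probes tested. The script was tested on simulated data.

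The genes and lists were chosen with earlier results of these data known. Values on every array are given for 28 of the 35 tested genes. These are 18 listed by name, those passing in any comparison as labelled or with the arrays exchanged, and those with the highest and lowest fold changes. The alternatives changed background correction, normalization, filter, probe, test, replicate block, the samples in the fit and the 2 doubtful arrays. The study's methods name a t-test in general and give no test for the arrays. Sequences come from RefSeq, build GRCm38.p6.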

Additional observations from a re-analysis of the deposited data

How the results depend on the processing

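After DMBA, the number of interferon-stimulated genes passing in CD109-/- against CD109+/+ skin was 0 as labelled. It was 1 with the replicate number as a block (Cxcl10, adjusted p = 0.0454), 6 by the methods' t-test unadjusted, and 15 (14 lower, 1 higher) with the 2 untreated arrays exchanged. For DMBA against untreated CD109+/+ skin it was 0, and 4 by the t-test unadjusted. Under every other alternative run for the 6 comparisons it was 0, and leaving out each array in turn gave 0 to 0. The replicate block changed no other call. The labels do not pair the samples, and same-numbered arrays deviated from their group means with correlations of −0.08 to 0.73. The highest was between the 2 untreated groups. In both of these, replicate 1 was high in Cd109 and replicate 2 low. There the block divides the arrays as the exchange does, so the 2 settings are not separate checks. Under the block, 1645 probes passed after DMBA, against 30 without it.

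Of 3186 values of the 28 genes under another setting, 24 passed (15 exchanged, 8 t-test, 1 block) and 3162 stayed on their side of the threshold. The 3186 include 168 from the deposited table of intensities. On each array that table is a fixed multiple of the intensity used here, so after scaling these 168 could not differ. No value was called as labelled, but 142 changed sign. None of these was in CD109-/- against CD109+/+ skin after DMBA. The means of that comparison come from the DMBA arrays alone. Settings that changed only the untreated arrays, the filter or the test could therefore not change its sign. A change of background correction, normalization, probe or DMBA array could. In the same comparison untreated, 76 changed sign (25 of 28 genes when exchanged, 23 with both doubtful arrays left out, 19 without untreated CD109-/- replicate 1). The others were 45 in DMBA over both genotypes, 15 in DMBA within CD109+/+, 4 within CD109-/- and 2 in the difference of the DMBA effects. In every comparison, the filter, the test, the block and the fit of only the arrays compared leave the fold changes as they are. These settings could not change a sign. Cxcl10 after DMBA had adjusted p-values of 0.0175 to 0.384. The t-test and the fit of only the arrays compared could give no value for the difference of the DMBA effects or the average over genotypes.

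Settings combined with the exchange were chosen after seeing the data. The 15 became 26 (25 lower) with normexp background correction, where 12.7% of all probes were lower and 32.6% higher. They became 2 without a filter on dim probes (1.87% and 4.71%), 19 with a filter on all 8 arrays (11.4% and 17%) and 15 with quantile normalization (9.1% and 8.75%), and leaving out each array gave 0 to 25. After DMBA the median of all probes was 0.12 as scaled here, 0.23 with normexp and −0.037 with quantile normalization. The genes' median minus it was −1.72, −1.66 and −1.67. Leaving out each array moved the genes' median from −2.14 to −1.14 after DMBA and from −0.085 to 1.29 in untreated skin. Calls among all probes after DMBA were 60 with normexp, 50 with quantile normalization, 2 without a filter, 19 with a filter on all 8 arrays, 0 with only the arrays compared and 7668 exchanged.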
